A study of Mus musculus with 11 samples.

Results

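The 10 genes described here belong to the bone morphogenetic protein (BMP) pathway, and were taken by symbol from 19938 genes measured in lung tissue of 129S1 mice. They are the ligands Bmp4 and Bmp6, the receptors Bmpr2, Acvrl1 and Eng, the inhibitory Smads Smad6 and Smad7, and the target genes Id1, Id2 and Id3. All 10 were found, and each is represented by its array row with the highest mean level. The symbols were selected on these same arrays, with the log2 differences between their treatment groups already known, so their levels and differences are given as a description, with no test. The study asks how aspirin and triptolide, a plant diterpenoid that inhibits transcription, act on the lung in the setting of lung cancer suppression. Expression was read on 11 arrays. Of these, 3 came from mice gavaged with aspirin at 4 mg per kg together with triptolide at 1 mg per kg (the combination), 3 from mice given triptolide at 1 mg per kg, 3 from mice given aspirin at 4 mg per kg, and 2 from untreated controls. Gavage was on 5 days a week for 2 months. The protocol lists a PBS group where the titles and treatment labels say untreated, so gavage of the controls with buffer is not settled. No age or sex is given, and the labels do not say that arrays of a group are separate animals, so errors and p-values measure only the spread between these samples.

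BMP ligands bind pairs of type I and type II receptors, which phosphorylate Smad1, Smad5 and Smad9. With Smad4 these enter the nucleus and switch on the Id genes, whose products bind basic helix-loop-helix transcription factors and keep them from DNA. Smad6 and Smad7 are induced by the same signal and shut it down. In the lung the receptors Bmpr2, Acvrl1 and the co-receptor Eng are prominent in endothelium, and human mutations in their genes cause hereditary pulmonary arterial hypertension and hereditary haemorrhagic telangiectasia.

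Promoter windows from 250 bases before to 50 after the start were taken from RefSeq on GRCm38.p6 for the 7 genes found in that table; Acvrl1, Id1 and Smad7 were not among them. Windows of 2 Id genes and 2 receptor genes are shown because these groups had different patterns across the treatments. Capitals mark matches, on either strand, to the GC-rich letters GGCGCC or to CAGAC, which reads GTCTG on the other strand; both are letters that Smad proteins are known to bind.
Id2, chr12:25096043-25096342, minus strand: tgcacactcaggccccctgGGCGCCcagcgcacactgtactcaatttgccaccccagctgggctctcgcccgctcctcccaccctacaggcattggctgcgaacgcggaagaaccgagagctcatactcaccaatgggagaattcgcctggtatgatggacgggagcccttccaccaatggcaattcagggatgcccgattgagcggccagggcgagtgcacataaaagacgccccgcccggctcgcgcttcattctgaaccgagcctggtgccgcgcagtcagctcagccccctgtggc
Id3, chr4:136143572-136143871, plus strand: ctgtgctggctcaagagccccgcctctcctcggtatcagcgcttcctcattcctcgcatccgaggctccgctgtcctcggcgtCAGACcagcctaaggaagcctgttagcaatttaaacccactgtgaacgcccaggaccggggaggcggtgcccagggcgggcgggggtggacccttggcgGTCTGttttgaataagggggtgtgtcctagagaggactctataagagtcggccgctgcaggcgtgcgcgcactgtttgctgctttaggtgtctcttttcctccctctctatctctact
Bmpr2, chr1:59764029-59764328, plus strand: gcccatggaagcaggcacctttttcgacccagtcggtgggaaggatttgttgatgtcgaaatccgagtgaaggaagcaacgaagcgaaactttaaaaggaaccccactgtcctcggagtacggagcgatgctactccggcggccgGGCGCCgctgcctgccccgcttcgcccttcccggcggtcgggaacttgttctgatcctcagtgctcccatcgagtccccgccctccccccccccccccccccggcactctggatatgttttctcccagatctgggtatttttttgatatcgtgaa
Eng, chr2:32646345-32646644, plus strand: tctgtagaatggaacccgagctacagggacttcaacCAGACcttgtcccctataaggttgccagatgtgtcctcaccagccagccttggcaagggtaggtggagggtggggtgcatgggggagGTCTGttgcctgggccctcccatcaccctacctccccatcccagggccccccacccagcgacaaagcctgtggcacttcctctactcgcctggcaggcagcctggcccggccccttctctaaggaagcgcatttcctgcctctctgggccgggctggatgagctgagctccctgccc
The Id2 and Bmpr2 windows each held 1 match to GGCGCC, a motif found in 11.9% of the 32851 promoter windows of that table. The Id3 and Eng windows each held 2 matches to CAGAC. At least 1 match to it occurs in 49.6% of all windows, and windows with 2 were not counted. The Bmp6 window held 1 match to CAGAC, and no match of either motif was found in those of Smad6 and Bmp4. No matches overlapped. These matches are a description of letters and say nothing of binding in these lungs.

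Across the treatments, the combination had the lowest group mean of all 4 groups for each of the 10 genes. Against untreated control the genes lay lower by 0.21 to 0.91 on the log2 scale, with a median difference of -0.54. Bmp6 and the receptors Eng and Bmpr2 were at the far end, and Id2 at the near end. With triptolide alone, Bmp6, the receptors and Smad6 lay below control while the Id genes were spread around it. With aspirin alone, no member lay wholly below control, and Smad6 and Smad7 lay above it.

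**Figure D1:**
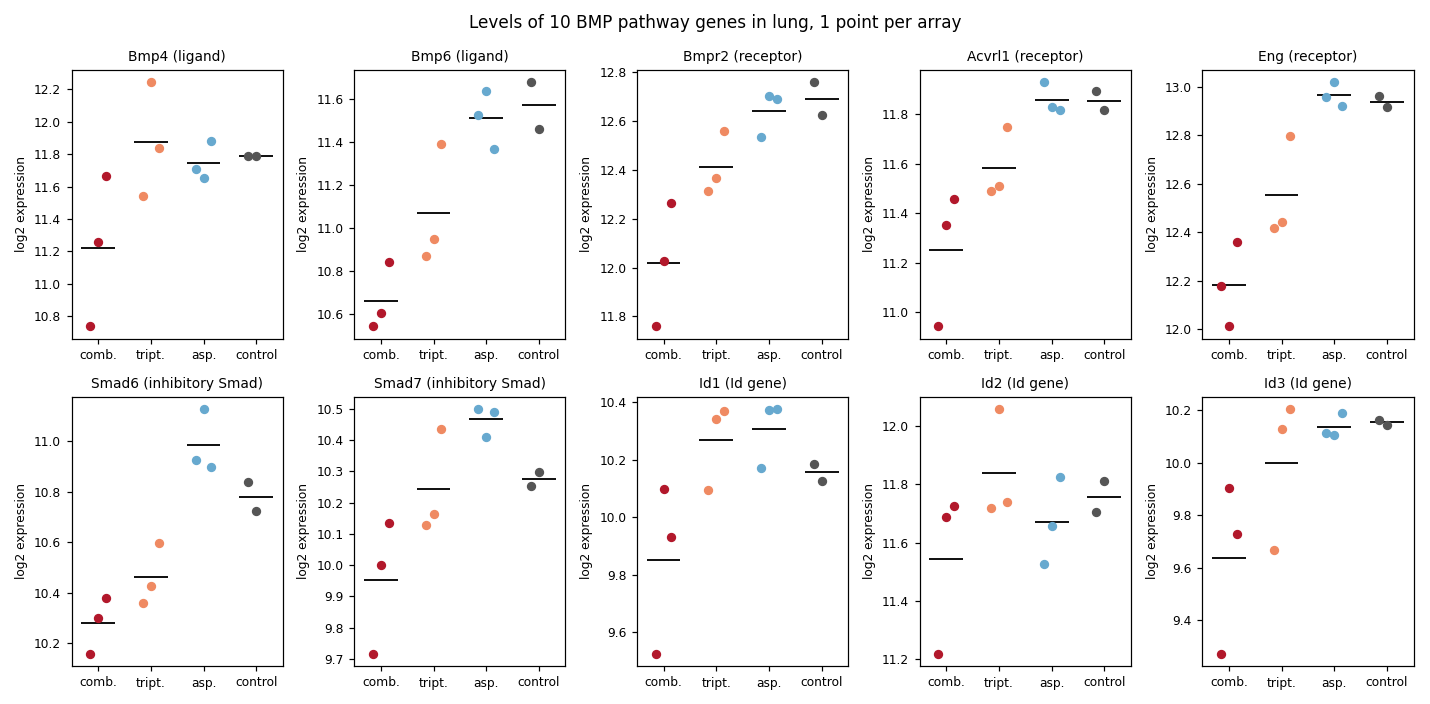
Log2 expression of the 10 genes, 1 panel per gene, with 1 point per array for the combination, triptolide, aspirin and untreated control groups and a line at each group mean. The combination group has the lowest mean in every panel, and combination 1 is its lowest array in each panel except that of Eng.

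Some facts of the arrays touch these values. Combination 1 stood apart at 60.2 on the first principal component over all genes, where the other arrays lay between -15.0 and 6.8. It read 2.84 on a list of cell cycle genes and 2.92 on a list of erythroid genes, in log2 units above the mean of all arrays, against at most 0.03 and 0.96 elsewhere. A mean over Kdm5d, Uty and Eif2s3y, which are Y-linked, was 5.67 to 6.73 on the combination arrays, 8.88 to 9.09 with aspirin and 5.81 to 5.94 in control. The triptolide arrays were mixed at 6.55, 9.36 and 9.08. Xist, expressed from the inactive X chromosome, was 12.26 to 12.80 with the combination, 6.77 to 6.996 with aspirin and 11.98 to 12.07 in control, and 12.32, 9.75 and 6.61 with triptolide. A fit with the Y-linked level added was made for every comparison, and its values are given for the members with the single drugs against control, and as medians for the other comparisons. Within groups that level varied most with triptolide, where triptolide 1 was also the lowest array for each member, so this fit rests largely on that array. The members' SE was wider in it for every comparison except the combination against control. Lung markers were high throughout, with the surfactant gene Sftpc at 13.6 to 14.3 on all arrays.

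The lower levels in the combination stood beside differences in markers of several cell types. The alveolar type 1 list averaged -0.45 ± 0.39 in the combination (SD, n = 3), against 0.20 ± 0.05 in control (SD, n = 2), and the groups did not overlap. The alveolar type 2 list averaged -0.31 ± 0.38 against 0.17 ± 0.07, also without overlap. The B and plasma cell list was on the other side, at 0.72 ± 0.32 against -0.47 ± 0.08, again without overlap. So were the T and NK cell list, at 0.07 ± 0.08 against -0.02 ± 0.01, and the cardiac muscle list, at -0.16 ± 0.02 against -0.36 ± 0.19. For T and NK cells the groups all but touched, with combination 2 at -0.0153 and control 1 at -0.0173. The fibroblast list lay lower, at -0.17 ± 0.42 against 0.20 ± 0.07, with no overlap but a narrow gap. Its combination arrays read -0.65, -0.01 and 0.138, and control 2 read 0.145. Combination 1 was also lowest on the alveolar lists. It read -0.87 for type 1, against -0.38 and -0.10 on combination 2 and 3, and -0.74 for type 2, against -0.11 and -0.07. Endothelial markers are given in more detail because the receptors are prominent in those cells, and the part of any of these lists in the members' values was not tested. All 18 listed markers lay below control, by a median of 0.76. Cdh5, the junctional cadherin, differed by -0.89 ± 0.14 (SE), Plvap, of capillary diaphragms, by -0.76 ± 0.12, the endothelin receptor Ednrb by -1.04 ± 0.18 and the transcription factor Erg by -0.79 ± 0.14. None of the 18 passed an adjusted p of 0.05 in the limma fit across all genes, where the smallest adjusted p among them was 0.0579. The mean endothelial level was -0.41 ± 0.25 in the combination, -0.01 ± 0.16 with triptolide and 0.21 ± 0.04 with aspirin (SD, n = 3 each), against 0.32 ± 0.07 in control (SD, n = 2). Without combination 1 the level in the combination still lay 0.60 below control. In whole lung, fewer endothelial cells and less of these RNAs per cell cannot be told apart.

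Bmp6, a ligand made by endothelium that also drives hepcidin in liver, showed the widest difference of the 10. It read 10.54, 10.60 and 10.84 in the combination, 10.87, 10.95 and 11.39 with triptolide, 11.53, 11.64 and 11.37 with aspirin, and 11.68 and 11.46 in control. All 3 combination arrays lay below every other array, and all 3 triptolide arrays lay below both controls, while aspirin and control overlapped. The difference from control was -0.91 ± 0.16 (SE) for the combination, or 0.53 times the control level, and -0.50 ± 0.16 for triptolide. Leaving out combination 1 gave -0.85 for the combination. Bmp4, a ligand needed for lung branching in the embryo, behaved differently. Its levels were 10.74, 11.26 and 11.66 in the combination, 11.54, 12.25 and 11.84 with triptolide, 11.71, 11.65 and 11.88 with aspirin, and 11.79 on both control arrays. The combination lay below control and overlapped with each single drug, and triptolide straddled control. Bmp4 differed from control by -0.57 ± 0.25 with the combination, by -0.33 without combination 1, and by 0.09 ± 0.25 with triptolide. The last turned to -0.42 ± 0.33 with the Y-linked level added, and Bmp4 with aspirin then stood at -0.68 ± 0.39, against -0.04 ± 0.25 without it. For Bmp6 the same fit gave -0.78 ± 0.23 with triptolide and -0.41 ± 0.27 with aspirin, and -0.95 ± 0.15 with the combination.

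The 3 receptors all had the combination lowest and triptolide next. Eng, the endothelial co-receptor that presents circulating BMP ligands, read 12.18, 12.01 and 12.36 in the combination, 12.42, 12.44 and 12.80 with triptolide, 12.96, 13.02 and 12.92 with aspirin, and 12.96 and 12.91 in control. The combination lay below triptolide on every array, triptolide below control, and aspirin overlapped with control. Eng in the combination differed from control by -0.76 ± 0.13, or 0.59 times its level, and from aspirin alone by -0.78 ± 0.12. Acvrl1, the endothelial type I receptor also called ALK1, read 10.94, 11.35 and 11.46 in the combination, 11.49, 11.51 and 11.75 with triptolide, 11.93, 11.83 and 11.82 with aspirin, and 11.90 and 11.82 in control. Its groups stood in the same order as those of Eng without overlap, apart from aspirin and control, and its differences from control were -0.61 ± 0.14 with the combination and -0.27 ± 0.14 with triptolide. Bmpr2, the type II receptor, read 11.76, 12.03 and 12.26 in the combination, 12.31, 12.37 and 12.56 with triptolide, 12.54, 12.70 and 12.69 with aspirin, and 12.76 and 12.62 in control. Triptolide lay below control and overlapped with aspirin, and the combination lay below all. Bmpr2 differed from control by -0.68 ± 0.14 with the combination and by -0.28 ± 0.14 with triptolide. Without combination 1 the combination differences were -0.75 for Eng, -0.45 for Acvrl1 and -0.55 for Bmpr2. With the Y-linked level added, triptolide stood at -0.62 for Eng, -0.38 for Acvrl1 and -0.45 for Bmpr2, and aspirin at -0.26, -0.13 and -0.26, while the combination moved by less than the replicate spread.

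**Figure D2:**
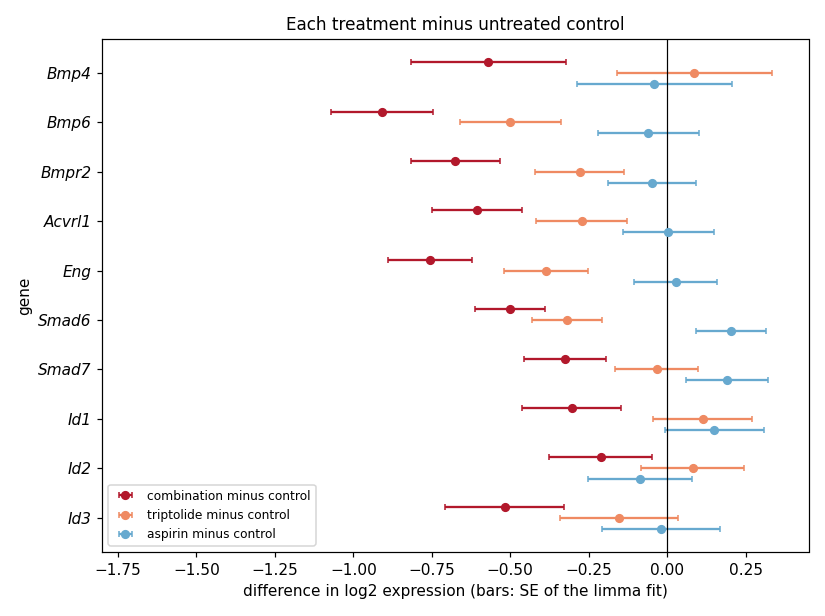
Difference in log2 expression of each treatment from untreated control for the 10 genes, as points with bars of 1 SE of the limma fit over all arrays. Combination points lie left of 0 for all 10 genes, from -0.91 for Bmp6 to -0.21 for Id2, and aspirin points lie within 0.21 of 0.

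The inhibitory Smads were the members that stood above control with aspirin. Smad6, which blocks BMP receptors preferentially, read 10.16, 10.30 and 10.38 in the combination, 10.36, 10.43 and 10.60 with triptolide, 10.93, 11.13 and 10.90 with aspirin, and 10.84 and 10.72 in control. Aspirin lay above control and control above triptolide with no overlap, while triptolide and the combination overlapped. Smad6 differed from control by -0.50 ± 0.11 with the combination, by -0.32 ± 0.11 with triptolide and by 0.20 ± 0.11 with aspirin. Smad7, which also blocks TGF-beta receptors, read 9.72, 10.0004 and 10.14 in the combination, 10.13, 10.16 and 10.44 with triptolide, 10.50, 10.41 and 10.49 with aspirin, and 10.25 and 10.30 in control. Triptolide straddled control here, at -0.03 ± 0.13, and the combination lay below control by 0.33 ± 0.13. Aspirin differed by 0.19 ± 0.13. Aspirin and control also differed in Y-linked level, and adding that level to the fit, the aspirin differences were 0.03 for Smad6 and 0.02 for Smad7, and those with triptolide -0.46 and -0.17.

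The Id genes differed among themselves, with Id2 and Id1 nearest to control in the combination and Id3 farther from it. Id1 read 9.53, 10.10 and 9.93 in the combination, 10.09, 10.34 and 10.37 with triptolide, 10.17, 10.37 and 10.38 with aspirin, and 10.19 and 10.13 in control. The combination lay below control on every array, though combination 2 came close to the lower control. Id1 differed from control by -0.30 ± 0.16 with the combination, and by -0.14 without combination 1. Id3 read 9.27, 9.91 and 9.73 in the combination, 9.67, 10.13 and 10.20 with triptolide, 10.11, 10.11 and 10.19 with aspirin, and 10.16 and 10.15 in control. Triptolide overlapped with every other group, since triptolide 1 was low and triptolide 3 was above control. Id3 differed from control by -0.52 ± 0.19 with the combination, and by -0.34 without combination 1. Id2, which is also used by lymphoid and epithelial progenitors, read 11.22, 11.69 and 11.73 in the combination, 11.72, 12.06 and 11.74 with triptolide, 11.53, 11.66 and 11.82 with aspirin, and 11.70 and 11.81 in control. Combination 1 lay below every other array and triptolide 2 above every other array, and the groups overlapped otherwise. The Id2 difference in the combination was -0.21 ± 0.17, and -0.05 without combination 1. With triptolide, Id1 stood at 0.11 ± 0.16, Id2 at 0.08 ± 0.17 and Id3 at -0.15 ± 0.19. With the Y-linked level added these were -0.05, -0.08 and -0.50, and those with aspirin were -0.06, -0.30 and -0.45.

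In counts, the combination and control did not overlap for 9 of the 10 genes, all lower and all but Id2, where 20.5% of all genes were lower without overlap. The count was also 9 without combination 1, where the background was 28.4%. Triptolide lay below control without overlap in 5 genes, Bmp6, Bmpr2, Acvrl1, Eng and Smad6, beside 13.3% of all genes. Aspirin lay above control in 2, Smad6 and Smad7, beside 10% of all genes, and below it in 0, beside 16%. Since the genes were picked with these contrasts in view, nothing is read from these counts. Over all genes the median difference from control was 0.01 for the combination, -0.01 for triptolide and 0.00 for aspirin. Over the 10 genes it was -0.54, -0.21 and -0.01, and 10, 7 and 5 of them lay below control, beside 47.2%, 55% and 51.7% of all genes. Triptolide 1 was the lowest array of its group for all 10 genes. The triptolide median was -0.11 without it and -0.30 without triptolide 3.

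When triptolide was added to aspirin, all 10 genes lay lower in the combination than with aspirin alone, by a median of 0.57, where 50% of all genes did. Without overlap there were 8, beside 9.86% of all genes, and 8 without combination 1, beside 13.1%. The 2 that overlapped were Bmp4 and Id2. Smad6 showed -0.70 ± 0.10 and Smad7 -0.52 ± 0.12 in this pairing. All 3 aspirin arrays were above all 3 combination arrays in Y-linked level. With that level added the median was -0.40, Bmp4 turned to 0.04 ± 0.34 and Id2 to 0.06 ± 0.26. Id2 was also on the other side, at 0.04, without combination 1. When aspirin was added to triptolide, all 10 again lay lower, by a median of 0.37, where 46.7% of all genes did. Here 4 did so without overlap, Bmp6, Bmpr2, Acvrl1 and Eng, beside 9.53% of all genes. The count was also 4 without combination 1, beside 14.2%, and the median was -0.22 without combination 1 and -0.17 with the Y-linked level added. Both pairings share the combination arrays. The interaction, which is the combination minus aspirin minus triptolide plus control, was negative for all 10 genes, from -0.21 ± 0.22 for Id2 to -0.61 ± 0.33 for Bmp4, with a median of -0.37; 48% of all genes had a negative interaction. With the Y-linked level added to the fit its median was 0.05, and 6 of the 10 genes had a positive value. The SE of the interaction was wider in that fit, at 0.39 and not 0.19 for Bmpr2 and 0.44 and not 0.21 for Id1. Its sign is therefore not settled there.

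Set against the endothelial markers within each array, the members were spread. In the combination minus control, the level relative to the mean of the 18 markers was -0.17 for Bmp6, -0.02 for Eng, 0.06 for Bmpr2, 0.13 for Acvrl1 and 0.17 for Bmp4. The relative difference was 0.23 for Smad6, 0.41 for Smad7, 0.43 for Id1, 0.52 for Id2 and 0.22 for Id3. With triptolide alone it was -0.17 for Bmp6, -0.06 for Eng, 0.05 for Bmpr2, 0.06 for Acvrl1 and 0.42 for Bmp4. It was 0.01 for Smad6, 0.29 for Smad7, 0.44 for Id1, 0.41 for Id2 and 0.17 for Id3. With triptolide the relative levels of Bmp6, Bmpr2, Eng, Smad6 and Id3 overlapped with control. The groups did not overlap, in the higher direction, for 7 of the 10 genes in the combination against control, beside 95.8% of all genes. It was so for 5 with triptolide and 5 with aspirin against control, beside 69.6% and 30.3%, and for 1 and 2 in the combination against aspirin and triptolide, beside 91.3% and 47.4%. A ratio within an array shows unequal difference and not which of its parts moved.

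**Figure D3:**
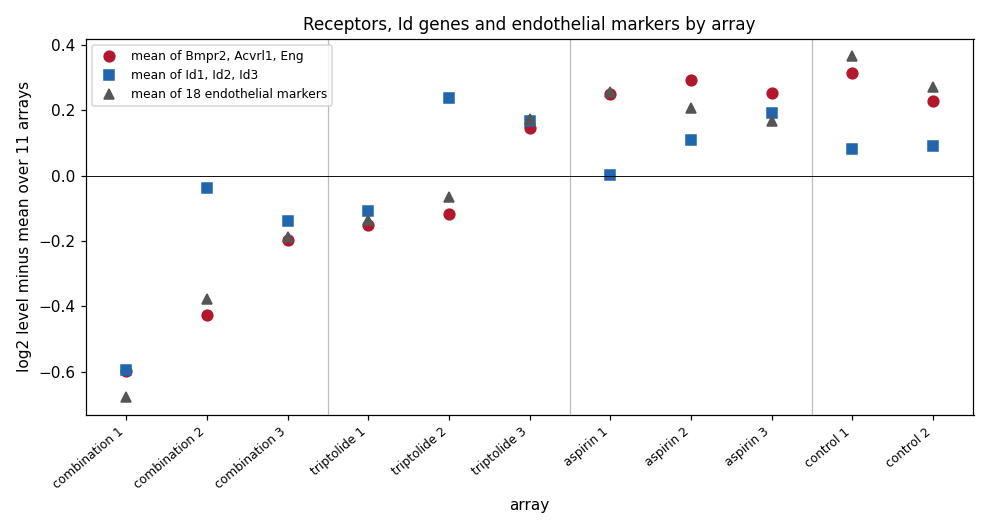
Log2 level minus the mean over 11 arrays, for each array, of the receptors (mean of Bmpr2, Acvrl1 and Eng), the Id genes (mean of Id1, Id2 and Id3) and the 18 endothelial markers. Receptors and markers run close together from -0.60 and -0.68 on combination 1 to 0.32 and 0.37 on control 1. The Id genes lie with them on combination 1 (-0.60), near them on combination 3 and triptolide 1 (-0.14 and -0.11), and above them on combination 2 (-0.04) and triptolide 2 (0.24). They lie below them on aspirin 1 (0.001), aspirin 2 (0.11) and both controls.

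Likeness to the members was sought among all other genes, with predicted genes and clones left out. Those nearest to the mean profile of the receptors over the 11 arrays were Ephb4, the ephrin receptor of veins, Flt1, a receptor for VEGF, Erg, Prickle2 and the T-box factor Tbx3. Their root mean square distances from that profile were 0.049 to 0.068 on the log2 scale, against a median of 0.327 over the genes searched. Flt1 and Erg are also among the endothelial markers listed here. Ephb4 read 10.09 ± 0.16 (SD, n = 3) in the combination, 10.43 ± 0.19 (SD, n = 3) with triptolide, 10.72 ± 0.04 with aspirin (SD, n = 3), and 10.79 ± 0.09 in control (SD, n = 2). Those nearest to the mean profile of the Id genes were Gcc2, the interferon-responsive transcription factor Irf1, Acbd5, Lima1 and Hivep2, at distances of 0.060 to 0.068, against a median of 0.263. None of these 5 was in the endothelial list. Irf1 read 10.04 ± 0.25 (SD, n = 3) in the combination, 10.33 ± 0.16 (SD, n = 3) with triptolide, 10.35 ± 0.04 with aspirin (SD, n = 3), and 10.37 ± 0.05 in control (SD, n = 2).

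The rest of the pathway was read from lists of 64 other ligands, receptors, Smads, antagonists, targets, Smad brakes and TGF-beta genes, of which 62 were measured. None of them passed at an adjusted p under 0.05 in limma in any of the 6 comparisons, as for all genes, of which 0% passed in each. In the combination against control, 41 of the 62 lay lower, with a median of -0.23, beside 47.2% of all genes and their median of 0.01. Combination 1 weighed on this, since without it 38 lay lower, with a median of -0.11, beside 10007 of all 19938 genes and their median of -0.0008. The same backgrounds apply to the counts of lower genes by list given below. At an unadjusted limma p under 0.05 there were 18 lower and 0 higher, where 10.6% and 3.41% of all genes were so, or 14% in all. Without combination 1 there were 14 lower and 0 higher, beside 1730 lower (8.68%) and 1061 higher of all 19938 genes. With triptolide against control, 2 were lower and 1 higher, beside 1.66% and 1.16% of all genes, or 2.81% in all. With aspirin, 2 were lower and 2 higher, beside 1.71% and 1.35%, or 3.05%. The combination had 15 lower and 0 higher against aspirin, beside 8.22% and 3.43%, or 11.6%. Against triptolide it had 14 lower and 3 higher, beside 10.1% and 3.5%, or 13.6%. The interaction had 4 negative and 2 positive, beside 2.23% and 1.19%, or 3.42%. Without combination 3, 10 of the 62 passed in the combination against control, all lower, among 896 genes in all. Without combination 1, 0 of the 62 passed there.

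Of 8 other BMP targets, 5 lay below control in the combination and 3 above, with a median of -0.15. They ran from Tmem100 at -0.81 to Hamp at 0.55 ± 0.58, the lowest and the highest of the 62 genes. Tmem100, a membrane protein switched on through Acvrl1 in endothelium, read 11.09, 11.23 and 11.54 in the combination, 11.71, 11.80 and 12.15 with triptolide, 11.93, 12.12 and 12.04 with aspirin, and 12.16 and 12.03 in control. The combination lay below all other arrays. Tmem100 differed from control by -0.81 ± 0.16, with a limma adjusted p of 0.0699, and passed at 0.0379 once each array was centred on its median, at 0.0371 with the replicate number as a block, at 0.0466 with the Y-linked level added and at 0.0149 without combination 3. It did not pass without combination 1, at 0.0686, or without combination 2. Nor did it pass after quantile normalization, the filter on mean level or row means. The difference was -0.74 ± 0.14 from aspirin alone and -0.60 ± 0.14 from triptolide alone, at limma adjusted p of 0.105 and 0.353. Hey1, a repressor shared by the BMP and Notch pathways, read 9.96, 10.09 and 10.64 in the combination and 10.95 and 10.84 in control. The Hey1 difference of -0.67 had a limma adjusted p of 0.124, and of 0.161 without combination 1. It passed at a limma adjusted p of 0.0126 when combination 3, its array nearest to control, was left out, and at 0.00268 with array weights. Atoh8, a helix-loop-helix factor induced by the same receptors, differed by -0.37 ± 0.09 between the combination and aspirin alone, at a limma adjusted p of 0.14. In the combination against control Atoh8 stood at -0.25 ± 0.10, Hey2 at -0.30 ± 0.15, Id4 at -0.05 ± 0.11, Msx1 at 0.02 ± 0.10 and Msx2 at 0.18 ± 0.17.

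The signal-carrying Smads lay lower in 4 of 4, with a median of -0.31, and of -0.16 without combination 1. Smad9 read 8.65, 8.71 and 8.81 in the combination and 9.15 and 9.04 in control, and differed by -0.38 ± 0.09 at a limma adjusted p of 0.103. It passed at 0.0422 with arrays centred on their medians, at 0.0450 without combination 3 and at 0.00454 with array weights. It did not pass without combination 1, at 0.122. Among receptors, Bmpr1a, a type I receptor found in many cell types, stood at 9.19, 10.10 and 10.19 in the combination, against 10.36 and 10.38 in control. The difference of -0.54 ± 0.25 was -0.22 without combination 1. All 5 Smad brakes lay lower too, with the ubiquitin ligase Smurf2 lowest at -0.50, and 4 of 5 did without combination 1, where their median was -0.21 and not -0.32.

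Ligands and antagonists lay on both sides of control. Of 11 other ligands, 4 lay below control in the combination, and Bmp3, which opposes other BMPs, had the smallest p, at -0.56 ± 0.15 and a limma adjusted p of 0.123. Bmp3 read 9.01, 9.39 and 9.59 in the combination, 9.37, 9.58 and 9.55 with triptolide, 9.50, 9.61 and 9.55 with aspirin, and 9.86 and 9.93 in control, so every treated array lay below both controls. Bmp7, a ligand of epithelium and kidney, did likewise, at -0.37 ± 0.13 with triptolide and -0.43 ± 0.13 with aspirin, at limma adjusted p of 1.00 and 1. Of 17 antagonists, 9 lay lower in the combination, and 8 without combination 1. Bambi, a decoy receptor, differed there from triptolide alone by -0.40 ± 0.12, and the activin antagonist Fstl3 by -0.46 ± 0.13, both at a limma adjusted p of 0.353. Fstl3 also lay below aspirin alone by 0.67 ± 0.13, at a limma adjusted p of 0.112. The antagonists Sost and Grem1 stood on the higher side, Sost by 0.22 ± 0.14 against control and Grem1 by 0.23 ± 0.11 against aspirin alone, at limma adjusted p of 0.521 and 0.44. The ligand genes Bmp8b, Gdf6 and Bmp10 were also there, at 0.19 ± 0.15 against control for Bmp8b, and 0.31 ± 0.13 and 0.26 ± 0.12 against triptolide alone for Gdf6 and Bmp10. Their limma adjusted p were 0.608, 0.357 and 0.365.

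**Figure D4:**
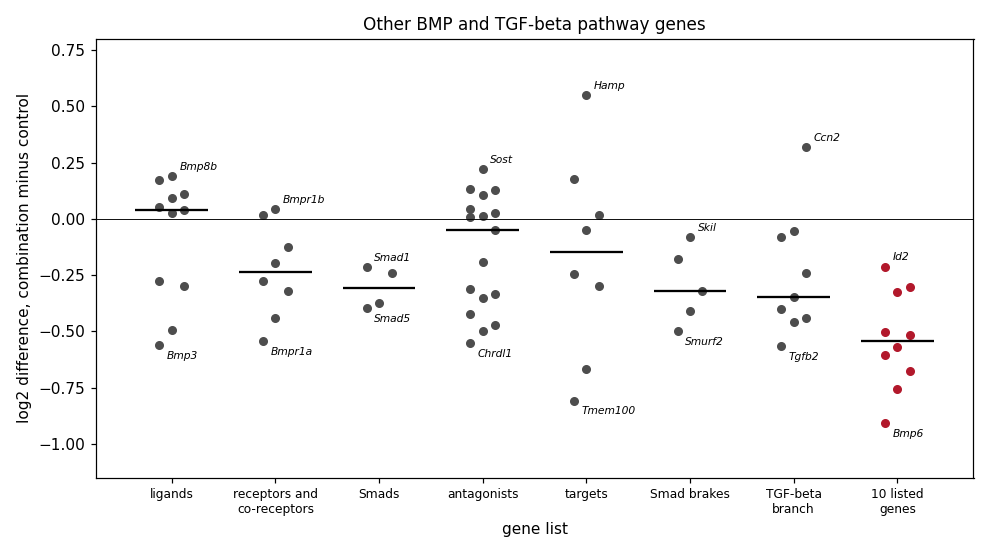
Log2 difference of the combination from untreated control for each measured gene of 7 lists of other BMP and TGF-beta pathway genes and for the 10 listed genes, with a line at each list median and the lowest and highest gene named. Medians run from 0.04 for ligands to -0.35 for the TGF-beta branch (0.06 and -0.21 without combination 1), and the 10 listed genes have a median of -0.54.

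Hepcidin and a BMP co-receptor stood highest with aspirin alone. Hamp, the iron hormone and a BMP target in liver, read 9.18, 8.07 and 8.49 in the combination, 8.31, 8.23 and 10.06 with triptolide, 8.34, 9.91 and 9.74 with aspirin, and 8.20 and 7.86 in control. It differed from control by 1.30 ± 0.58 with aspirin and by 0.84 ± 0.58 with triptolide, at limma adjusted p of 1 and 1.00. Hjv, a co-receptor made by liver and striated muscle, was high on the same 3 arrays, at 9.21 on triptolide 3, 9.13 on aspirin 2 and 8.93 on aspirin 3, with all other arrays lower. Hjv differed from control by 0.52 ± 0.23 with aspirin and 0.35 ± 0.23 with triptolide, at limma adjusted p of 1 and 1.00. Cardiac muscle markers were highest on triptolide 3, aspirin 2 and aspirin 3 as well, at list levels of 1.14, 0.61 and 0.04, against -0.09 or less elsewhere, and their part in these values was not tested. In the TGF-beta branch, 8 of 9 lay below control in the combination, and 7 of 9 without combination 1. The exception on all arrays was Ccn2, a matricellular protein, at 0.32 ± 0.17 there and 0.47 ± 0.17 with triptolide, at limma adjusted p of 0.449 and 1.00. The antagonist Twsg1 differed by -0.33 ± 0.15 with aspirin at a limma adjusted p of 1, and Smad9 by -0.20 ± 0.09 with triptolide at 1.00.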

How the data were processed

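Lung RNA was hybridised to 11 Affymetrix mouse gene arrays. The authors deposited 1 log2 expression value for each of 35556 rows and array; RMA and Partek are named in the submitters' processing notes, with no settings. Array medians ran from 8.13 to 8.25, there is no detection call, and precision is limited by how few arrays there are. Names came from the platform annotation in GEO: 21789 carried 1 symbol, 1621 several and 12146 none listed. The row with the highest mean stood for a gene, which gave 19938 genes. The fit, by lmFit and eBayes of limma 3.58.1 under R 4.3.3, took all arrays and 4 groups, with no covariate, and two-sided p-values were adjusted by Benjamini-Hochberg over all genes. The fit was tested on simulated data. Errors of differences are the SE of that fit.

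The members, gene lists and settings were chosen with earlier results of these data known. Named were all 10 members and, of the other pathway genes, in each comparison the 3 with the smallest p in each direction, with the 5 genes nearest in profile to the receptors and to the Id genes and 4 endothelial markers. Hey1, Hey2, Bmpr1a, Smurf2, Msx1, Msx2, Id4 and Sftpc were chosen after their values were seen. List levels are means of log2 values centred over the arrays. Of 105 marker genes, 98 were measured. Alternatives were array centring, quantile normalization, a filter on mean level, row means, array weights, fewer groups in the fit, the replicate number, the Y-linked level and each array left out. Pathway lists without combination 1 were added after seeing the data.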

Additional observations from a re-analysis of the deposited data

Results flagged for a closer look

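In Smad6, Smad7 and Id1 every aspirin array lay above the control mean, while every combination array lay below the triptolide mean. The interaction of the drugs was -0.39 ± 0.15 (SE) for Smad6, -0.48 ± 0.18 for Smad7 and -0.57 ± 0.21 for Id1. The difference was not tested for these genes, which were picked with the contrasts in view. Adding the Y-linked level to the fit gave -0.09 ± 0.31, -0.19 ± 0.37 and -0.21 ± 0.44.

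Among the other pathway genes arrays lay on opposite sides of the group means in this way for aspirin in Fstl3 (interaction -0.66 ± 0.20), Atoh8 (-0.37 ± 0.13), Gdf6 (0.38 ± 0.20) and Hjv (-0.85 ± 0.31). For triptolide without and with aspirin they did so in Hjv, Hamp (-1.59 ± 0.78), Bmp7 (0.50 ± 0.18) and Bmp10 (0.42 ± 0.18). None of these interactions passed in limma, where the smallest adjusted p among the pathway genes was 0.895.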

How the results depend on the processing

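Over the members and 8 other settings the sign turned in 0 of 80 values for the combination against control, 6 for triptolide, 14 for aspirin, 2 for the combination against aspirin and 0 against triptolide, and in 6 of 70 for the interaction. With 1 array left out it turned in 0, 5, 7, 1, 0 and 0 of 110. No gene passed in any comparison in the fit as reported. For the combination against control, 335 genes and 2 other pathway genes passed with arrays centred on their medians, 2 genes after quantile normalization, 96 and 1 with the Y-linked level added, and 152 and 1 with the replicate block. In the fits of the compared groups only, 4 genes passed for aspirin against control and 2 for the combination against aspirin, where quantile normalization also gave 2. With array weights, 3838, 337, 2935, 6479, 4959 and 2139 genes passed for the combination, triptolide and aspirin against control, the combination against aspirin and against triptolide, and the interaction, with 19, 5, 10, 29, 26 and 17 pathway genes. The weights ran from 0.107 for combination 1 to 43.5 for aspirin 3, and their estimation stopped before it converged. Adding the Y-linked level moved the members' median to -0.43 for triptolide and -0.26 for aspirin against control, to -0.40 and -0.17 for the combination against aspirin and triptolide, and to 0.050 for the interaction.

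With 1 array left out, the genes passing ranged from 0 to 896 for the combination, 0 to 3 for triptolide and 0 to 4 for aspirin against control, and from 0 to 704 and 0 to 24 for the combination against aspirin and triptolide, with 0 to 6 for the interaction. The highest counts for the combination came without combination 3. Pathway genes ranged from 0 to 10 against control and 0 to 8 against aspirin. The members' median ranged from -0.64 to -0.39 against control, -0.73 to -0.43 against aspirin and -0.45 to -0.22 against triptolide. Arrays that share a number had correlations of deviations from -0.14 to 0.33, and 7 of 11 were closest to an array of their own number. Since not every pair was over 0.1, the number was not taken to pair samples.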
